A study of Mus musculus with 6 samples.

Results

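The 10 genes described here encode the non-collagen scaffold of basement membranes, the thin sheets of matrix that cells lay down against their own surface. They were taken by symbol, with no threshold on a measured value but with earlier results of these data known. They comprise 6 laminin chain genes (Lama2, Lama4, Lama5, Lamb1, Lamb2 and Lamc1), both nidogen genes (Nid1 and Nid2), the perlecan gene Hspg2 and the agrin gene Agrn. Other laminin chain genes, among them Lamb3, which rose, were left out of the 10 and counted with the partners. The identifiers of the 10 genes were found in the deposited tables of 54752 genes, and all 10 had enough counts to be among the 14726 genes tested. RNA had been sequenced from 3T3-L1 cells, a mouse fibroblast line that can be turned into fat cells in culture, in 3 preadipocyte and 3 adipocyte libraries. The labels give both groups the strain C57BL/6J, embryo as the tissue, no treatment, and a growth text shared by all 6 samples that names BCS media, DMI and FBS without saying which group had which. Because the source name is Adipocyte for all 6, groups were taken from titles, which match the labelled cell types. The day of harvest is not given in the sources used here, the cells are an established line and no tissue, and the labels do not say whether replicates came from separate cultures. The p-values then reflect only how far these libraries vary, which may be technical variation.

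A laminin molecule is a trimer of an alpha, a beta and a gamma chain. The alpha chain carries the globular domains that bind integrins and dystroglycan on the cell, and the gamma chain encoded by Lamc1 holds the site to which nidogens bind. Nidogens connect laminin with type IV collagen, while perlecan and agrin are large heparan sulfate proteoglycans that bind laminin and cell surface receptors. Fat cells in tissue are each wrapped in a basement membrane.

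The state of the cells was checked on marker genes. All 6 adipocyte markers were higher and all 5 preadipocyte markers were lower in the libraries labelled adipocyte. Endothelial markers summed to 0.545 to 0.909 CPM (counts per 1000000, TMM-scaled) in preadipocyte and 0.280 to 0.692 CPM in adipocyte libraries, macrophage markers to 1.74 to 2.18 and 0.649 to 1.12 CPM, epithelial markers to 0 to 0.474 and 0.432 to 1.30 CPM, and Schwann cell markers to 7.04 to 7.44 and 7.26 to 9.06 CPM. The defining genes Adgre1 of macrophages, Sox10 of Schwann cells and Myod1 of muscle had 0 counts in all 6 libraries. The muscle markers summed to 3.56 to 4.11 CPM in preadipocyte and 89.5 to 108.7 CPM in adipocyte libraries, carried by Des and Myh11, which rose. Actg2, of the same list, fell from 1.76 ± 0.092 to 0.148 ± 0.11 CPM (SD, n = 3). Their part in the results below was not tested. Library depth lay between 22496486 and 26314076 expected counts. In RNA from whole cultures, fewer cells with a transcript and less transcript per cell cannot be told apart.

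Sequences upstream of a RefSeq start were available in the RefSeq table (build GRCm38.p6) for 7 of the 10 genes, all but Lama4, Lamc1 and Nid2. The first pair printed here is the beta chain genes, whose transcripts moved apart between the states, and the second is the proteoglycan genes, which both fell. Each run ends at the base before the first annotated exon, is given 5′ to 3′ on the gene's strand, and has every GGGCGG or its reverse complement CCGCCC, the GC box, in capitals. The runs are chr12:31265043-31265233 (plus strand) for Lamb1, chr9:108479612-108479735 (plus) for Lamb2, chr4:137468553-137468768 (plus) for Hspg2 and chr4:156197489-156197738 (minus) for Agrn, before the more upstream of its listed RefSeq starts.
Lamb1: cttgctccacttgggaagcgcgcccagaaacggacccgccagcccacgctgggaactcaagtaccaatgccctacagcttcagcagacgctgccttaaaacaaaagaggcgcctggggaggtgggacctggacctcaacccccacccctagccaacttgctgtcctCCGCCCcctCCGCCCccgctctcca
Lamb2: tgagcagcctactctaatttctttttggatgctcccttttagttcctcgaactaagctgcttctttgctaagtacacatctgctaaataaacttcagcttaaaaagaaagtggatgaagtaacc
Hspg2: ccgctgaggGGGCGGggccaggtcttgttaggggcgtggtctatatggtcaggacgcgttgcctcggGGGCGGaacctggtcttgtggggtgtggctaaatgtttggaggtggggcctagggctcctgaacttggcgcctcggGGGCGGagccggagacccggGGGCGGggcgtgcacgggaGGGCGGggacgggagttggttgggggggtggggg
Agrn: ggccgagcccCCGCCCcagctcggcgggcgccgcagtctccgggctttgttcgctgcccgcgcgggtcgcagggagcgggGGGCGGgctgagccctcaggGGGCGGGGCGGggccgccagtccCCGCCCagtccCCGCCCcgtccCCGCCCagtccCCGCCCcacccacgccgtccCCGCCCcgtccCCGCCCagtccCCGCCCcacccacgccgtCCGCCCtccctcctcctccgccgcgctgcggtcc
Counting overlapping matches on both strands, the runs held 2 GC boxes for Lamb1 (191 bases), 0 for Lamb2 (124), 5 for Hspg2 (216) and 12 for Agrn (250). The runs thus differ in length, but the whole windows of 250 bases held the same numbers. Of 32851 windows of 250 bases before a RefSeq start, 32.7% held at least 1. In such whole windows, G and C made up 62% of bases for Lamb1, 43.6% for Lamb2, 70% for Hspg2 and 83.6% for Agrn, against a median of 52.4% over all windows. Of the whole windows not printed, that of Lama2 held 0 GC boxes with 47.2% G and C, and that of Nid1 held 1 with 64.4%. That of Lama5 held 4 with 72.4%, and the window before the other RefSeq start of Agrn held 2 with 60.8%. The Lama2 start lies 2816 bases inside the annotated gene and this Agrn start 11229 bases inside, so these windows are not upstream of the annotated genes. Of the whole windows of printed genes, the last 126 bases for Lamb2, 59 for Lamb1 and 34 for Hspg2 lie inside the annotated gene. The beta chain genes thus differed in these letters and the proteoglycan genes did not differ in holding GC boxes, which describes the sequence and nothing about its use.

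In adipocytes, 7 of the 10 genes were lower in the quasi-likelihood test of edgeR (Benjamini-Hochberg adjusted p under 0.05 over all tested genes). Of all tested genes 37.9% were lower, 35.7% higher and 73.5% either. None of the 10 was higher, also not at an unadjusted p under 0.05 and not by DESeq2, limma-voom or limma on log2(TPM + 1). This holds for the 10 as chosen, since Lamb3, a laminin chain gene outside them, was higher. The falls differed widely in size, from 7.13-fold for Lama2 and 4.68-fold for Nid2 through 2.96-fold for Agrn, 2.93-fold for Lamb2 and 1.92-fold for Hspg2 to 1.55-fold for Nid1 and 1.38-fold for Lama4. Lamb1, Lamc1 and Lama5 did not pass the test. The median log2 fold change was -0.79 over the 10 genes and -0.06 over all tested genes. CPM values of the groups did not overlap for 8 of the 10, all lower in adipocytes, against 39.7% of tested genes lower without overlap and 76.5% without overlap in either direction. TPM values did not overlap for 9 of the 10, where 56.7% of tested genes were lower without overlap on that scale.

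**Figure D1:**
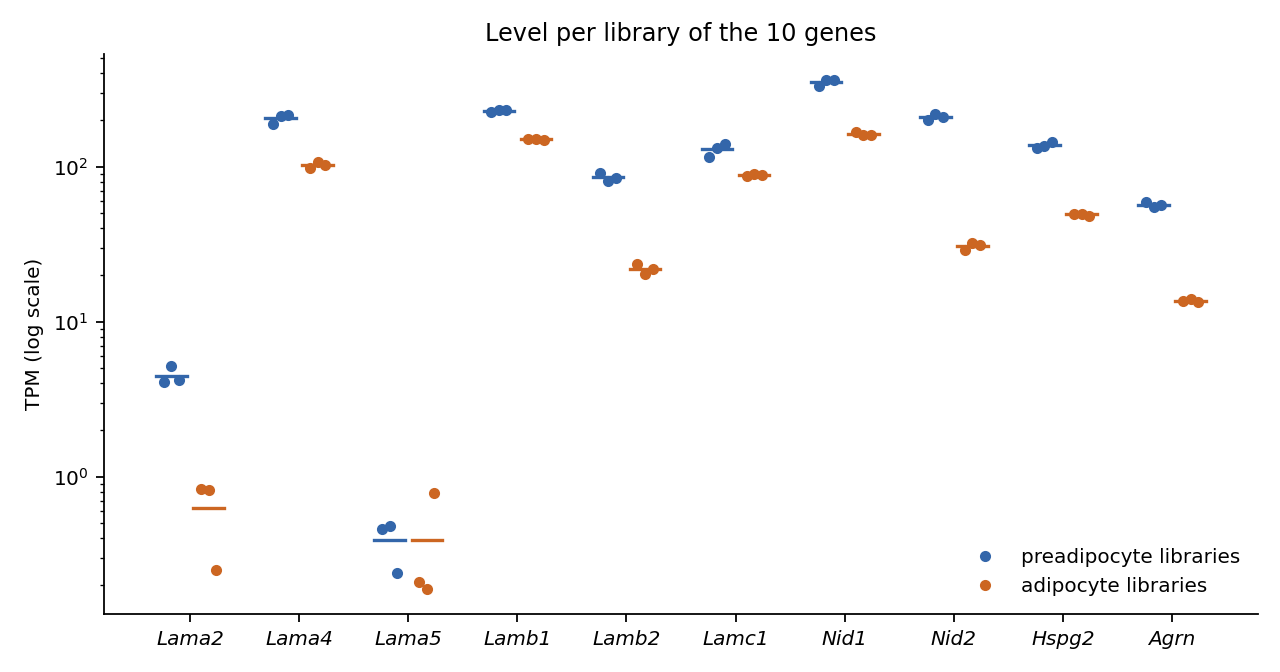
TPM on a log axis for each of the 10 genes, with 1 point per library and a line at the mean of 3 libraries. The adipocyte points lie below the preadipocyte points for 9 genes, by the widest margins for Lama2 and Nid2, and overlap them for Lama5, whose highest point of all is adipocyte library 3 at 0.78 TPM.

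Because TPM (transcripts per 1000000) divides by length, it allows levels of different genes to be ordered. In preadipocytes Nid1 was highest at 352.7 ± 16.7 TPM (SD, n = 3), followed by Lamb1 at 230.1 ± 4.37, Nid2 at 208.5 ± 8.48 and Lama4 at 205.9 ± 14.1 TPM (SD, n = 3). Next came Hspg2 at 137.5 ± 6.17, Lamc1 at 129.7 ± 12.9, Lamb2 at 86.0 ± 5.05 and Agrn at 56.9 ± 1.93 TPM (SD, n = 3), with Lama2 at 4.48 ± 0.59 and Lama5 at 0.393 ± 0.133 TPM (SD, n = 3) far below. Nid2 overlapped Lama4 and Hspg2 overlapped Lamc1 over the 3 libraries, while the other neighbours in this order did not overlap.

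In adipocytes Nid1 was again highest at 163.2 ± 3.93 TPM and Lamb1 next at 150.0 ± 1.93 TPM (SD, n = 3). Lama4 at 102.8 ± 4.03 and Lamc1 at 88.2 ± 1.32 TPM (SD, n = 3) now stood above Hspg2 at 49.2 ± 0.88 and Nid2 at 30.8 ± 1.67 TPM (SD, n = 3). Nid2 went from the third to the sixth place. Lamb2 at 21.9 ± 1.68 and Agrn at 13.6 ± 0.31 TPM (SD, n = 3) kept places 7 and 8. At the bottom, Lama2 at 0.633 ± 0.332 and Lama5 at 0.393 ± 0.335 TPM (SD, n = 3) overlapped, and no other neighbours did. Together the 10 genes took 0.541% ± 0.0098 of all expected counts in preadipocytes, and this share was 0.276% ± 0.0063 in adipocytes (SD, n = 3).

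Among the alpha chains, Lama4 supplied nearly all transcript in both states. Lama4 (ENSMUSG00000019846.11, GRCm38 chromosome 10, 38965515 to 39110188, plus strand), the chain of vessel walls and fat tissue, measured 615, 660 and 661 CPM in preadipocyte libraries 1 to 3 and 463, 489 and 454 CPM in adipocyte libraries 1 to 3. All 3 adipocyte values lay below all preadipocyte values, and it fell by 0.46 log2 units (SE 0.074, adjusted p = 0.00042 by edgeR). Its share of the alpha chain TPM was 97.7% ± 0.28 in preadipocytes and 99.0% ± 0.053 in adipocytes (SD, n = 3).

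Lama2 (ENSMUSG00000019899.16, chromosome 10, 26980036 to 27619758, minus strand), the alpha chain of muscle and nerve basement membranes, had 437, 531 and 470 counts in preadipocytes and 79, 54 and 41 in adipocytes. Its CPM values were 17.1, 21.0 and 17.1 against 3.42, 2.52 and 1.77. The lowest preadipocyte value was several times the highest adipocyte value, and Lama2 fell by 2.83 log2 units (SE 0.21, adjusted p = 2.75e-06 by edgeR). On the log2(TPM + 1) scale, which understates the change of low genes, the Lama2 difference was -1.76. Lama5 (ENSMUSG00000015647.9, chromosome 2, 180176373 to 180225859, minus strand), a widespread epithelial and vascular chain, had 50, 58 and 39 counts against 26, 31 and 31. Its CPM values, 1.96, 2.29 and 1.42 against 1.12, 1.45 and 1.34, overlapped between the groups. The log2 fold change was -0.53 (SE 0.24, adjusted p = 0.070 by edgeR), so a difference in Lama5 was not established at this depth. It was past the threshold without preadipocyte replicate 3 (-0.70, adjusted p = 0.031).

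The beta chain genes parted. Lamb1 (ENSMUSG00000002900.16, chromosome 12, 31265234 to 31329644, plus strand) measured 696, 670 and 681 CPM in preadipocytes and 666, 654 and 615 CPM in adipocytes. The groups did not overlap but came within a few CPM of each other, and the log2 fold change of -0.08 did not pass (SE 0.071, adjusted p = 0.33 by edgeR). Lamb2 (ENSMUSG00000052911.9, chromosome 9, 108479736 to 108490530, plus strand), the beta chain known from neuromuscular junctions and kidney filters, measured 187, 154 and 160 CPM against 61.8, 53.7 and 55.6 CPM. The groups lay far apart and Lamb2 fell by 1.55 log2 units (SE 0.099, adjusted p = 9.70e-07 by edgeR).

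Lamc1 (ENSMUSG00000026478.14, chromosome 1, 153218922 to 153332786, minus strand), the gamma chain of most laminins, measured 486, 527 and 534 CPM in preadipocytes and 515, 509 and 476 CPM in adipocytes. These values overlapped, with a log2 fold change of -0.04 (SE 0.076, adjusted p = 0.62 by edgeR). Whether Lamb1 and Lamc1 are read as level or lower depends on the scaling between libraries. Scaling by library totals alone moved the median tested gene by -0.33 and limma on log2(TPM + 1) by -0.48 relative to TMM. On these scales Lamb1 was lower (-0.41, adjusted p = 0.00048 by edgeR, and -0.61, limma adjusted p = 2.47e-05), and so was Lamc1 (-0.37, adjusted p = 0.0018 by edgeR, and -0.55, limma adjusted p = 0.00042). Upper-quartile factors, which moved the median gene by -0.13, gave a call for Lamb1 (-0.21) and none for Lamc1 (-0.18). Without adipocyte replicate 3 the TMM values were 0.01 for Lamb1 and 0.05 for Lamc1, neither called. With DESeq2 Lamc1 stood at 0.01. Lama5, whose TMM value did not pass, was lower with library totals (-0.86) and upper-quartile factors (-0.66).

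**Figure D2:**
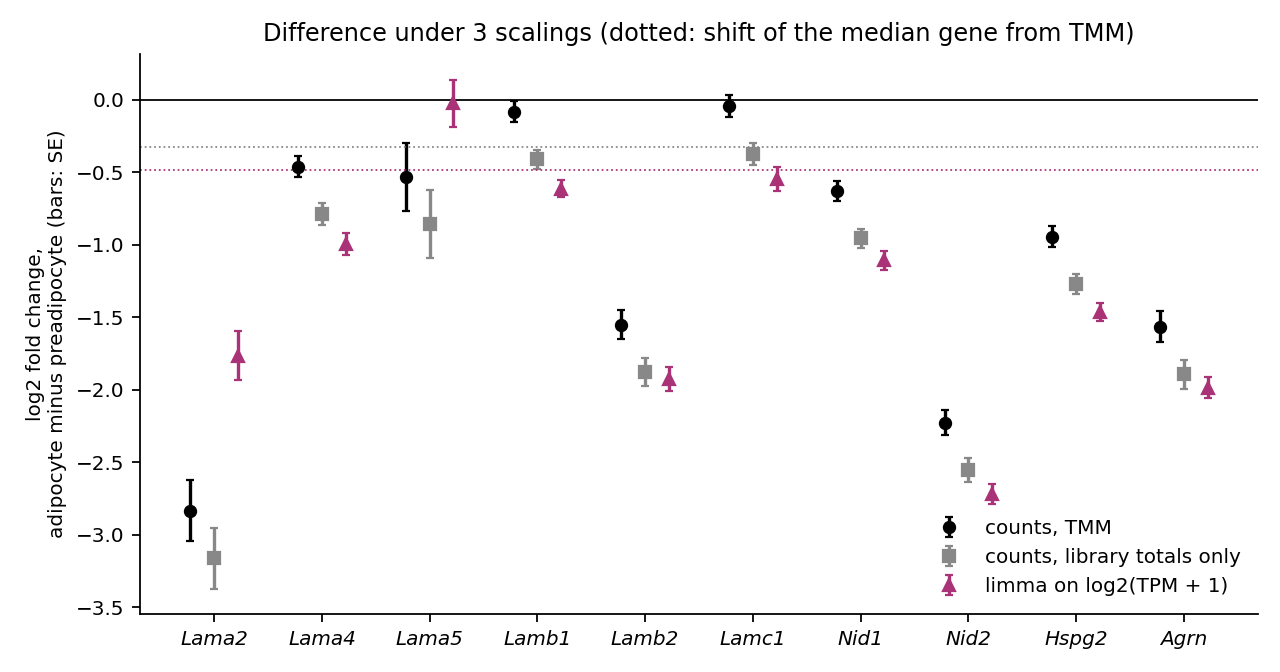
Log2 fold change (adipocyte minus preadipocyte, bars show SE) of the 10 genes with TMM-scaled counts, with library totals alone and with limma on log2(TPM + 1), and dotted lines at the shift of the median tested gene from TMM, -0.33 and -0.48. Lamb1 and Lamc1 lie near these lines, or near 0 with TMM. Lama2, Lama4, Lamb2, Nid1, Nid2, Hspg2 and Agrn lie below on every scale. Lama5 lies below with both count scalings and above the line with limma on log2(TPM + 1).

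Both nidogens fell, by different amounts. Nid1 (ENSMUSG00000005397.8, chromosome 13, 13437551 to 13512269, plus strand), the more widespread nidogen, measured 1126, 1153 and 1135 CPM in preadipocytes and 735, 744 and 730 CPM in adipocytes. Its 3 values within each state were close together and the states did not overlap, a fall by 0.63 log2 units (SE 0.067, adjusted p = 2.96e-05 by edgeR). Nid2 (ENSMUSG00000021806.4, chromosome 14, 19751265 to 19811787, plus strand) measured 488, 478 and 479 CPM against 108, 108 and 92.3 CPM. The adipocyte values lay far below the preadipocyte values, and Nid2 fell by 2.23 (SE 0.088, adjusted p = 4.77e-08 by edgeR). Nid1 and Nid2 were the members with fractional expected counts, in 6 of 6 libraries, which shows that some of their reads were shared out with other features. Nid2 shares 437 exonic bases with Rtraf on the opposite strand, and Rtraf itself had a log2 fold change of -0.05 (SE 0.076, adjusted p = 0.58 by edgeR). Nid1 shares 143 exonic bases with the antisense gene Gm48682, which had 20 and 18 counts summed over the 3 libraries of each state. Without a statement on strand, reads from these stretches cannot be assigned with certainty.

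The heparan sulfate proteoglycan genes also fell. Hspg2 (ENSMUSG00000028763.17, chromosome 4, 137468769 to 137570630, plus strand), encoding perlecan, measured 992, 982 and 1049 CPM in preadipocytes and 547, 522 and 503 CPM in adipocytes. The adipocyte values were close together and well below all preadipocyte values, a fall by 0.94 log2 units (SE 0.074, adjusted p = 3.84e-06 by edgeR). Agrn (ENSMUSG00000041936.18, chromosome 4, 156165290 to 156197488, minus strand), encoding agrin, measured 194, 157 and 168 CPM against 64.8, 54.9 and 55.7 CPM. Library 1 was highest in each state, the states did not overlap, and Agrn fell by 1.56 (SE 0.11, adjusted p = 1.43e-06 by edgeR).

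Ratios within a library do not depend on the scaling between libraries, and 8 were compared. The ratio of Lamb1 to Lamb2 TPM was 2.46, 2.84 and 2.75 in preadipocyte and 6.38, 7.47 and 6.77 in adipocyte libraries. Every adipocyte library thus held relatively less Lamb2, and the ratio rose 2.56-fold in the mean of logs, without overlap. The ratio of Nid1 to Nid2 was 1.67, 1.68 and 1.73 against 5.79, 4.99 and 5.15, 3.13-fold higher in adipocytes and again without overlap. Hspg2 to Agrn gave 2.24, 2.46 and 2.55 against 3.67, 3.56 and 3.60, a difference of 1.49-fold. The exact two-sided permutation p was 0.1 for each of these 3, the smallest that 3 against 3 libraries allow, and 0.11 after Benjamini-Hochberg adjustment over the 8 ratios, so none can pass 0.05.

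**Figure D3:**
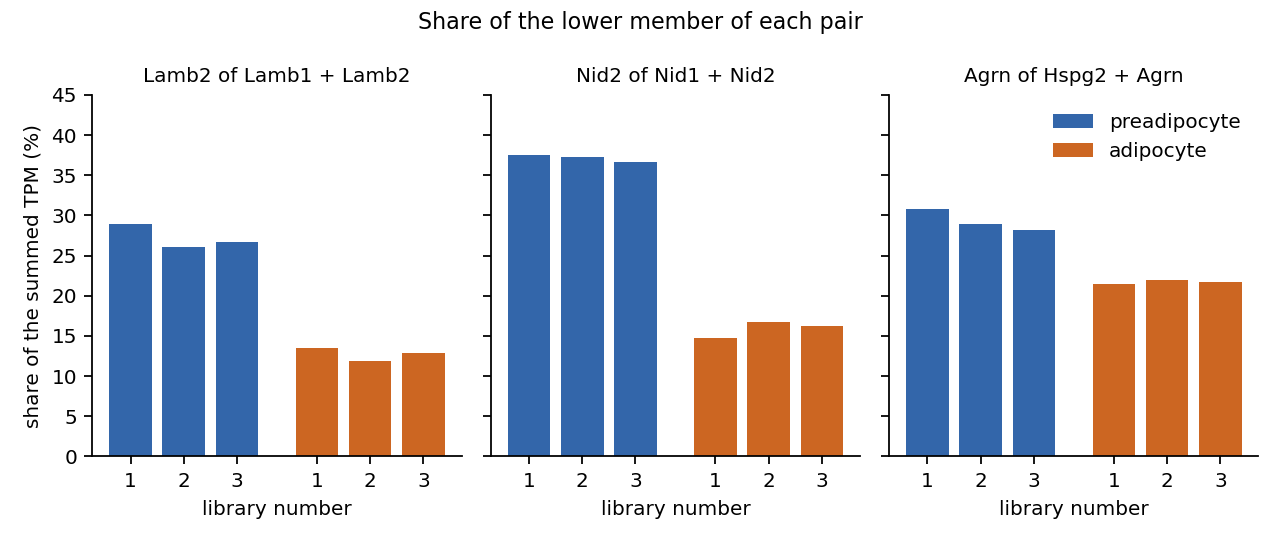
Percent of the summed TPM of each pair held by Lamb2, Nid2 and Agrn, with 1 bar per library. The mean share in preadipocyte and adipocyte libraries was 27.2% and 12.7% for Lamb2, 37.2% and 15.9% for Nid2, and 29.3% and 21.7% for Agrn, and every adipocyte bar is shorter than every preadipocyte bar of its gene.

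Chain classes were compared with Lamc1 in the same way. The summed alpha chains stood at 1.68, 1.65 and 1.56 times Lamc1 in preadipocytes and at 1.15, 1.21 and 1.17 times in adipocytes. The summed beta chains stood at 2.74, 2.35 and 2.27 times Lamc1 against 2.01, 1.93 and 1.91 times. Both classes lay above Lamc1 in all 6 libraries and nearer to it in adipocytes, without overlap (exact permutation p = 0.1 for each, n = 3 per state, adjusted p = 0.11).

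The ratio of Lama4 to Lama2 rose from 46.1, 41.4 and 51.3 to 119, 130 and 411, and that of Lama2 to Lama5 went from 8.93, 10.8 and 17.4 to 3.95, 4.32 and 0.321, without overlap in either (exact permutation p = 0.1, n = 3 per state, adjusted p = 0.11). Adipocyte library 3 was the extreme in both, and without it the log2 difference of Lama2 to Lama5 was -1.52 in place of -2.75. Without adipocyte library 1 or 2 it was -3.34 or -3.40. Lama4 to Lama5 overlapped (log2 difference -0.74, exact permutation p = 0.6, n = 3 per state) and turned to 0.05 when CPM replaced TPM.

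The deposited length of a gene is the mean over its transcripts, weighted by how much of each the quantification assigned. It bears on the TPM of the low alpha chains. Lama5 was given 7603, 9082 and 11388 bases in preadipocyte and 6715, 9955 and 2414 bases in adipocyte libraries, from at most 58 counts. Adipocyte libraries 2 and 3 both had 31 Lama5 counts, yet their TPM was 0.19 and 0.78. Lama2 was given 7479, 7775 and 7832 bases against 5268, 4096 and 9614. The TPM of both genes therefore follows the assumed transcript as well as the count, and with an offset for effective length the log2 fold change was -2.40 for Lama2 (adjusted p = 0.00032 by edgeR) and 0.25 for Lama5 (adjusted p = 0.69 by edgeR).

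Among the abundant members, Lamb2 had a shorter deposited length in every adipocyte library, 3422, 3554 and 3496 bases against 3763, 3705 and 3696 bases. Its longest annotated coding transcript is 5629 bases in 33 exons, beside 3 other coding and 3 retained-intron transcripts, so the weighted length lay well under that transcript in all 6 libraries. The difference of -231 bases had an exact permutation p of 0.1 (n = 3 per state, adjusted p = 0.50 over the 10 genes). Nid1 was given 6087 to 6090 bases in 5 libraries and 5617 in adipocyte library 1. Lengths of the other 6 abundant members overlapped between the states.

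The partners of these genes were described from 6 lists of 64 genes, of which 46 were tested. In all, 17 were higher and 22 lower in adipocytes, against 35.7% and 37.9% of all tested genes. Among laminin chain genes outside the 10, Lama1 had 0 counts, and Lama3 had 11 counts over the 3 preadipocyte and 3 over the 3 adipocyte libraries. Lamc3 had 1 and 5. Lamb3, a beta chain known from the laminin of skin, rose.

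Lamb3 (ENSMUSG00000026639.18) went from 0.352, 0.316 and 0.218 CPM to 38.3, 28.1 and 36.7 CPM, a rise of 6.85 log2 units (SE 0.22, adjusted p = 1.36e-08 by edgeR). Its annotated span overlaps G0s2, an inhibitor of lipolysis, and Hsd11b1, a glucocorticoid-regenerating enzyme, on the opposite strand. These rose by 10.51 (SE 0.24) and 8.53 (SE 0.19, adjusted p = 2.98e-09 by edgeR), and their annotated exons share 0 bases with those of Lamb3. Their part in the Lamb3 value was not tested. In TPM, Lamb3 reached 11.9 in the mean of adipocyte libraries, below Lamb2 at 21.9.

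Of 8 basement membrane collagen genes, 5 were tested, with 2 higher, 1 lower and a median log2 fold change of 0.13. This balance turned with library totals and with limma on log2(TPM + 1), where 1 was higher and 3 lower with medians of -0.20 and -0.39, and Col4a2 and Col18a1 joined Col4a5 among the lower genes. Col4a1, a chain of the main type IV collagen network, was the most abundant at 2109 ± 98 and 2974 ± 267 CPM (SD, n = 3). It rose by 0.50 (SE 0.086, adjusted p = 0.00071 by edgeR), a call lost with library totals (0.17) and with limma on log2(TPM + 1) (0.04). Its partner Col4a2 measured 1547 ± 40 and 1692 ± 114 CPM (SD, n = 3) with a log2 fold change of 0.13 (SE 0.077, adjusted p = 0.16 by edgeR). It was higher with the replicate number as a block and lower with library totals (-0.20) or limma on log2(TPM + 1) (-0.39). Col15a1, a collagen of the outer basement membrane zone, rose from 42.9 ± 0.32 to 435.6 ± 12.9 CPM (SD, n = 3). Col4a5 fell by 1.65 log2 units (SE 0.074, adjusted p = 9.82e-08 by edgeR).

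Of 15 other basement membrane proteins, 9 were tested, and 2 rose and 7 fell, with a median of -2.99. The median depends on which genes enter, since 10 were tested without adipocyte replicate 3 or without any 1 preadipocyte replicate, with 3 higher and medians of -1.98 to -1.83. With no filter on low counts it was -1.28, and with limma on log2(TPM + 1) -1.34. The paralogs Smoc1 and Smoc2, calcium-binding proteins, were the extremes. Smoc1 went from 0.196, 0.395 and 0.145 CPM to 42.8, 41.1 and 41.4 CPM, and Smoc2 from 98.5, 83.8 and 85.7 CPM to 0.432, 0.327 and 0.216 CPM. Smoc1 was thus at most 0.395 CPM in preadipocytes and Smoc2 at most 0.432 CPM in adipocytes. Sparc, a collagen-binding glycoprotein and the most abundant of the list, fell by 0.84 log2 units (SE 0.087, adjusted p = 2.43e-05 by edgeR).

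Receptors of laminin and agrin went both ways, with 3 of 11 tested higher and 6 lower (median -0.62, and -1.06 without adipocyte replicate 1). The median was -0.25 with limma on log2(TPM + 1), where 2 were higher and 7 lower, and -0.39 with no filter on low counts. The 3 rises with TMM were those of Itga7 and Itga6, alpha subunits of laminin-binding integrins, and of Dag1, the dystroglycan gene. Itga7 rose from 2.23, 2.09 and 2.32 CPM to 116, 102 and 101 CPM (log2 fold change 5.58, SE 0.11, adjusted p = 1.92e-09 by edgeR), and Itga6 from 23.9 ± 3.17 to 614 ± 58 CPM (SD, n = 3). Itga7 shares 9 exonic bases with Mettl7b on the other strand, which rose from 9 to 1501 summed counts. Itgb1, the beta subunit that pairs with both, had the highest TPM of the list in preadipocytes and stood below Itga6 and Dag1 in adipocytes. It fell from 630, 728 and 690 CPM to 234, 281 and 284 CPM (log2 fold change -1.36, SE 0.10, adjusted p = 2.74e-06 by edgeR). Of the 4 muscle markers, Des and Myh11 were higher along with Itga7, a muscle integrin subunit, while Actg2 was lower and Myod1 had 0 counts. Their part in the Itga7 value was not tested.

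Dag1 rose from 407 ± 6.57 to 626 ± 2.03 CPM (SD, n = 3), or 0.62 log2 units (SE 0.067, adjusted p = 3.28e-05 by edgeR), a call lost with limma on log2(TPM + 1) (0.09). Lrp4, the agrin receptor, fell from 5.66 ± 0.94 to 0.340 ± 0.087 CPM (SD, n = 3), and Musk, its partner kinase at the synapse, had 14 and 5 summed counts. Itga2, a collagen and laminin receptor subunit, had 56 counts in preadipocytes and 2 in adipocytes, 24.2-fold lower (95% exact interval 6.38 to 204, counting error only). Both adipocyte counts came from library 2. The log2 fold change of -4.37 was -3.83 without adipocyte replicate 1, -3.79 without replicate 3 and -7.15 without replicate 2, when the others were at 0 and the fitted value is no measure of size.

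Dystroglycan binds laminin through a sugar chain built by dedicated enzymes. Of 13 such genes, 12 were tested, and 5 were higher and 4 lower with a median of 0.19. With limma on log2(TPM + 1), 1 was higher and 6 lower (median -0.27), and with library totals 3 and 6 (median -0.14), so the balance of this list has no direction that holds across scalings. Pomt1, which adds the first sugar, rose from 20.4 ± 2.19 to 78.6 ± 5.75 CPM (SD, n = 3) and was higher under each of these scalings. It shares 4 exonic bases with Uck1 on the other strand, which rose by 3.45 (SE 0.13). Rxylt1, the most abundant of the list by mean TPM over all 6 libraries but below B4gat1 in preadipocytes, rose by 0.59 (SE 0.080), a call lost with limma on log2(TPM + 1) (0.12).

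The dystrophin complex connects dystroglycan with actin inside the cell, and 3 of its 7 tested genes rose and 4 fell. Their median of -0.37 has no stable direction, as it was 0.32 with a filter of 10 counts in total and 1.06 with no filter, when genes with few counts enter and 4 were higher and 4 lower. Sgcd, a sarcoglycan, rose from 8.30 ± 1.03 to 36.4 ± 3.65 CPM (SD, n = 3). Dtna, a dystrobrevin, fell from 19.3 ± 1.04 to 0.239 ± 0.10 CPM (SD, n = 3). Sgce, the most abundant of the list by mean TPM over all 6 libraries, fell by 0.71 log2 units (SE 0.067, adjusted p = 1.38e-05 by edgeR).

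**Figure D4:**
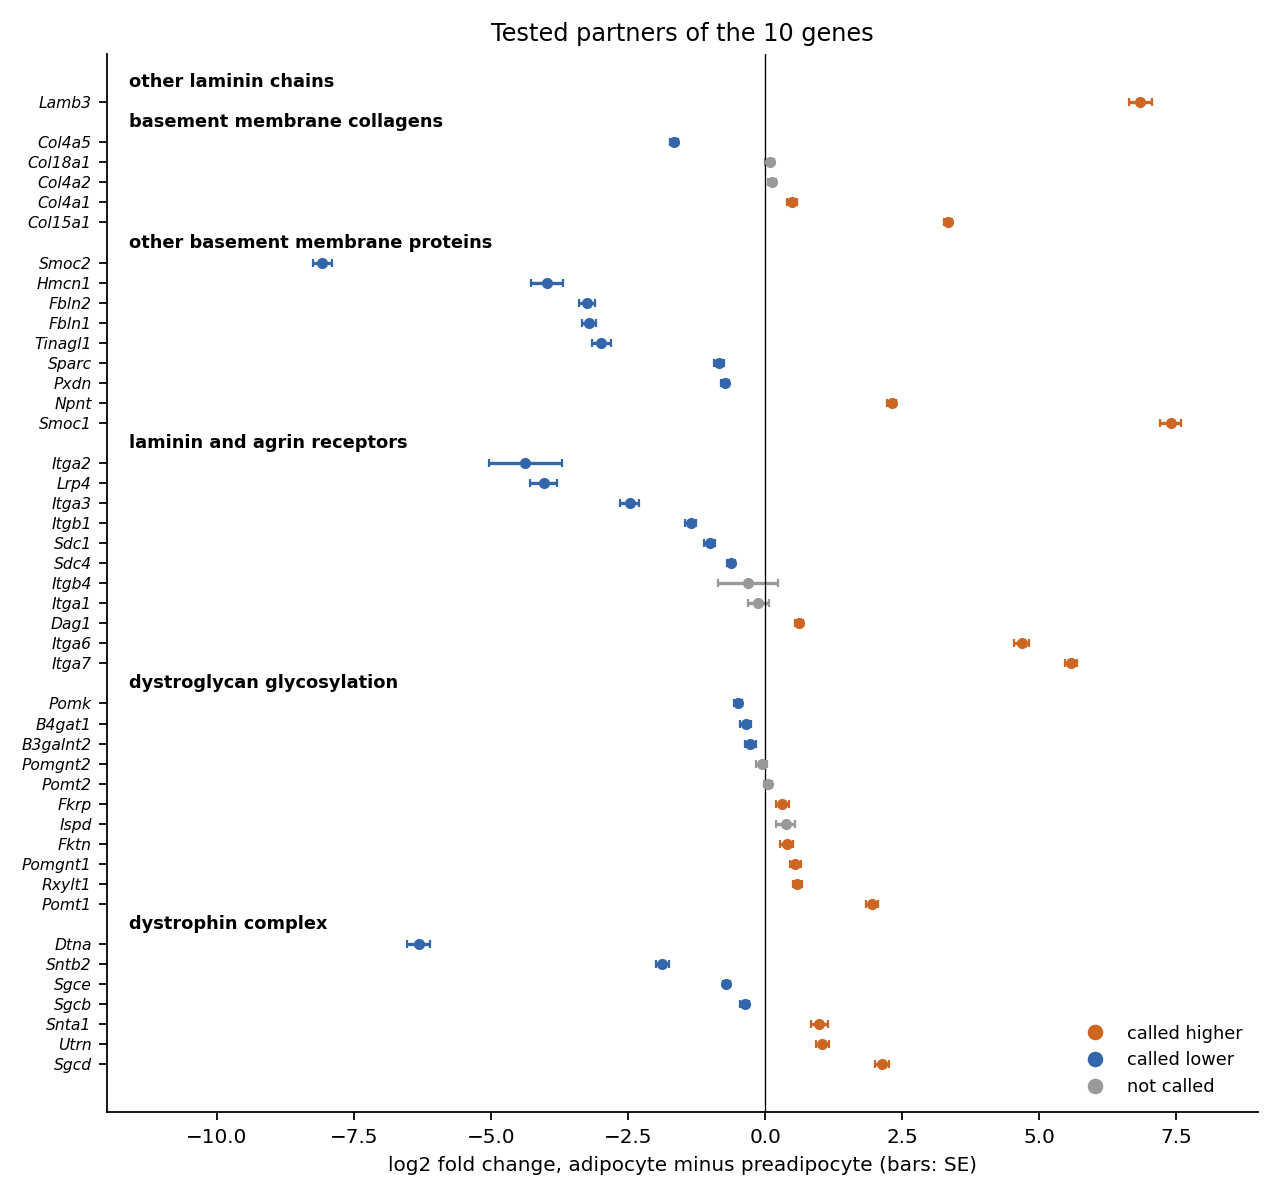
Log2 fold change (adipocyte minus preadipocyte, TMM-scaled counts, bars show SE) of 44 of the 46 tested partner genes by list, coloured by the call at an adjusted p of 0.05. The 16 plotted genes called higher and 21 called lower occur side by side within most lists.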

How the data were processed

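RNA sequencing tables of 3 preadipocyte and 3 adipocyte libraries were used, grouped by sample title. The authors deposited 1 gene table per library, with GRCm38 and mm10 as builds and Bowtie2, Bowtie, RSEM and DESeq2 as tools in the submitters' processing notes, which give no versions or roles. The expected counts deposited by the authors are model estimates, in which a read that fits more than 1 gene is divided. The deposited TPM values are scaled by length and to 1000000 within each library. The deposited length and effective length per library were used as such, and FPKM was not used. Identifiers without version were matched to GENCODE M21 (54723 of 54752).

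Expected counts were rounded and tested with edgeR 4.0.16 in R 4.3.3 (filterByExpr, TMM, quasi-likelihood F-test, group as the only term, Benjamini-Hochberg at 0.05), after testing on simulated data. CPM uses TMM-scaled totals. Ratios and lengths were compared by exact permutation in scipy 1.17.1. Alternatives used limma 3.58.1, DESeq2 1.42.0 and other scalings, filters and libraries. The 10 genes, the lists and the rule for named partners (largest rise, largest fall, most abundant) were chosen with earlier results of these data known, and Col4a2, Col18a1, B4gat1, Itga6, Dag1, Lrp4, Musk and the laminin chains with few counts were named after their values were seen. The values of 2 tested partners are not reported here. Library 1 of each state deviated together: deviations from the group means correlated at 0.66, 0.30 and 0.26 for numbers 1, 2 and 3 over 14726 genes, all above the limit of 0.1, so the numbers were treated as pairing the samples and a fit with the replicate block was run beside the main one. Libraries numbered 2 and 3 were as much alike across states (0.45 and 0.16), so the pairing is a hint from the data. No 2 libraries were identical.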

Additional observations from a re-analysis of the deposited data

How the results depend on the processing

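Over 19 alternatives, Lama2, Lama4, Lamb2, Nid1, Nid2, Hspg2 and Agrn stayed lower, and 0 members were higher. The number of members lower was 7 to 8 when each library was left out in turn, 9 with upper-quartile factors or limma on log2(TPM + 1), and 10 with library totals. The share of all tested genes called lower moved too, from 37.9% with TMM to 43.1%, 56.6% and 50.8% with these 3. With the replicate block, alone or with the effective length offset, 7 fell and 0 rose. The block added Col4a2 and Ispd to the partner genes called higher (19 in place of 17) and changed no call among the members. Partner genes called higher were 11 with limma on log2(TPM + 1) or log2(TPM + 0.1), and all genes called higher were 3266 and 3248 in place of 5252. Higher genes made up 48.5% of calls with TMM, 34.3% with library totals and 28.2% with limma on log2(TPM + 1). Leaving out each library gave log2 differences of 1.30 to 1.41 for Lamb1 to Lamb2, 1.58 to 1.69 for Nid1 to Nid2 and 0.53 to 0.62 for Hspg2 to Agrn, and the sign-flip test within replicate numbers (block) cannot go below 0.25. The difference of Lama4 to Lama5 reversed from -0.74 to 0.053 with CPM, which does not use the deposited lengths. Counts of 26 to 58 per library limit what can be said of Lama5.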
